A study of Mus musculus with 10 samples.

Results

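Chondroitin and dermatan sulfate are long chains of alternating uronic acid and N-acetylgalactosamine that hang from proteoglycan core proteins of the cell surface and the extracellular matrix. Here, 10 genes that build these chains were described in the mouse uterus: Xylt1, Csgalnact1, Csgalnact2, Chsy1, Chsy3, Chpf, Chpf2, Dse, Chst11 and Chst3. They were found by their gene symbols, and all 10 are among the 29268 genes of the count table. The set was chosen by its function around Chsy1, a gene selected on its low level in the transgenic uterus in the contrast described here. The values of the 10 genes in that contrast are therefore a description, and their p-values support nothing beyond it.

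Uteri of 5 HSD17B1TG and 5 WT female mice, all 4 months old and of the FVB/N strain, were sequenced with 1 library per mouse. HSD17B1TG mice are heterozygous for human HSD17B1 cDNA, which encodes an enzyme that makes estradiol from estrone, driven in all tissues by a chicken beta actin promoter with a CMV enhancer. WT mice carry no transgene. Expression of the human transgene was not analysed here, so the genotype rests on the labels. The HSD17B1TG females do not cycle and the WT uteri were taken without regard to the cycle phase, so genotype and cycle state cannot be told apart. Single mice are given as TG1 to TG5 for HSD17B1TG and as WT1 to WT5 for WT.

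The libraries held 16544864 to 19451715 counts on genes in HSD17B1TG and 14817228 to 23271988 in WT. The uterine genes Hoxa10, Hoxa11, Esr1 and Pgr were above 10 FPKM in every mouse (fragments per kilobase of transcript, scaled to the depth of the library), and Hoxa10 and Hoxa11 fell in HSD17B1TG. With Foxa2, the list held 5 uterine markers, and all 5 had a negative log2 fold change. The libraries also differed in cell type markers, whose counts are to be read against all genes tested. Of these, 2.81% fell and 3.34% rose in edgeR, 11.4% were lower and 14.7% higher at an unadjusted p under 0.05, and 6.33% were lower and 8.66% higher past the adjusted p in DESeq2. The summed FPKM of 8 markers of stromal fibroblasts lay between 423 and 1839 in HSD17B1TG and between 1577 and 1929 in WT, and 4 of the 8 fell in HSD17B1TG (Pdgfra, Hand2, Col3a1 and Thy1). For 4 of the 8 (Pdgfra, Hand2, Col1a1 and Col3a1), every HSD17B1TG mouse was below every WT mouse. This held for 2.65% of all genes tested, and 4.04% had every HSD17B1TG mouse above every WT mouse. TG1 stood apart from the other HSD17B1TG mice, with a stromal sum of 1839 and a summed FPKM of 7 smooth muscle markers of 6995, against 815 to 2889 in the others, and an epithelial sum of 586 against 1629 to 2682. WT4 stood apart from the other WT mice, with a smooth muscle sum of 5618 against 383 to 1981 and an epithelial sum of 1496 against 372 to 869. The 7 epithelial markers had a summed FPKM of 586 to 2682 in HSD17B1TG and of 372 to 1496 in WT, and 0 of the 7 passed the test in edgeR (6 had an unadjusted p under 0.05, and 2 passed in DESeq2). Of 7 smooth muscle markers, 7 had a positive log2 fold change and 0 passed in edgeR, in DESeq2 or at an unadjusted p under 0.05. Of 5 endothelial markers, 5 had a negative log2 fold change and 0 passed in edgeR (3 had an unadjusted p under 0.05, and 1 passed in DESeq2). Among 4 markers of all leucocytes, Laptm5 rose and the other 3 were lower at an unadjusted p under 0.05, and among 6 macrophage markers Cd68 rose. The summed FPKM of 5 neutrophil markers was 7.27 to 12.4 in HSD17B1TG and 0.601 to 4.32 in WT, without overlap, but 2 of the 5 were under the filter and 0 of the other 3 passed in edgeR (1 had an unadjusted p under 0.05, and 1 passed in DESeq2). The 4 adipocyte markers were under the filter. Their summed FPKM was 25.1 in TG4, 0 to 2.85 in the other HSD17B1TG mice and 0 to 6.17 in WT. The summed FPKM of 4 oviduct markers was 0.623 to 2.21 in HSD17B1TG and 0.647 to 5.97 in WT. Of these, 2 were under the filter and 0 passed in edgeR (1 was higher at an unadjusted p under 0.05 and in DESeq2). Mitochondrial genes took 5.74%, 1.94%, 2.49%, 6.87% and 7.57% of the counts in TG1 to TG5 and 2.58% to 3.37% in WT. TG4 and TG5, with the highest mitochondrial shares, were also the mice with the lowest Chsy1. The part of these values in the results below was not tested. In bulk tissue, fewer cells of a type and less RNA per cell cannot be told apart.

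The chains are built in the Golgi on a linker of xylose, galactose, galactose and glucuronic acid, the same linker from which heparan sulfate starts. Adding N-acetylgalactosamine to it commits the chain to chondroitin, a polymerase then adds both sugars in turn, and an epimerase turns glucuronic acid into iduronic acid, which makes the chain dermatan sulfate. In the uterus, chondroitin and dermatan sulfate proteoglycans such as versican and decorin are parts of the stromal matrix.

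The promoter windows of Chsy1 and Dse, the members whose HSD17B1TG and WT values did not overlap, and of Chst11, whose group means were nearly equal, are shown so that the start regions of these genes can be compared. Each window holds 250 bases before and 50 bases after the RefSeq start, in GRCm38.p6 and in the direction of transcription. The Chsy1 window is chr7:66109242-66109541 (+), the Dse window chr10:34207186-34207485 (-) and the Chst11 window chr10:82985247-82985546 (+). Capitals mark a GC box (GGGCGG) or a CCAAT box (CCAAT) on either strand.
Chsy1: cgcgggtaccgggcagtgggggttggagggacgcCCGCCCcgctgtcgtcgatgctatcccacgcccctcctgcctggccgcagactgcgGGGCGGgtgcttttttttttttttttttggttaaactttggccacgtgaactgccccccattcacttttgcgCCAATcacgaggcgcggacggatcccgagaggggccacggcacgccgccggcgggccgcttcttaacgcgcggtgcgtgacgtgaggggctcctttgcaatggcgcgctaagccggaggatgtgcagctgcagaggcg
Dse: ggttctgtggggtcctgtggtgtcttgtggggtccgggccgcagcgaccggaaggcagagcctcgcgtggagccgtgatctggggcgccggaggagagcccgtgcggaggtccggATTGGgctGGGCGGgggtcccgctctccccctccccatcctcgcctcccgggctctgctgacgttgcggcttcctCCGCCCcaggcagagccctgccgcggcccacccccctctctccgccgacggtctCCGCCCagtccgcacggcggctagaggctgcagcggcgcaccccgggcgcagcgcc
Chst11: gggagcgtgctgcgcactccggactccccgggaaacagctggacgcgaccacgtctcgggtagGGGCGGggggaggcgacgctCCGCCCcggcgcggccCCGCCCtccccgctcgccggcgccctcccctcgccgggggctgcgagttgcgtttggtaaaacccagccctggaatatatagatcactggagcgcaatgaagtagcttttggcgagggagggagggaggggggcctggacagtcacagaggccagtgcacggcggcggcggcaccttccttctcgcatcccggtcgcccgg
The Chsy1 window holds 2 GC boxes, with their first bases at -216 and -160 from the start, and 1 CCAAT box at -88. The Dse window holds 3 GC boxes (-127, -60 and -6) and 1 CCAAT box at -135. The Chst11 window also holds 3 GC boxes, at -187, -167 and -151, and no CCAAT box. A GC box was found in 35.7% and a CCAAT box in 37.4% of the 32851 mouse promoter windows of that length. None of the 3 windows holds TATAAA (13.6% of all windows), the palindromic estrogen response element (the half-site GGTCA, any 3 bases and its reverse complement, 0.07%), that half-site alone (40.5%) or the steroid half-site AGAACA (19.0%), all searched on both strands. The half-site GGTCA is contained in the full element. Their G and C content was 65.3% for Chsy1, 75.3% for Dse and 71.0% for Chst11, against a median of 52.7% over all windows. RefSeq windows were matched for 7 of the 10 genes. A match is a description of the letters and not a bound site.

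Chsy1 was the highest of the 10 genes in every WT uterus and was far lower in every HSD17B1TG uterus. It encodes chondroitin synthase 1, a polymerase that adds both glucuronic acid and N-acetylgalactosamine. The gene (ENSMUSG00000032640) lies on the plus strand at chr7:66109515-66173798 in GRCm38. Its FPKM was 13.7, 14.1, 14.1, 7.20 and 6.22 in TG1 to TG5 and 72.2, 47.8, 43.6, 36.6 and 65.0 in WT1 to WT5. The groups did not overlap, and the lowest WT value was 2.59 times the highest HSD17B1TG value. The mean was 11.1 ± 4.00 FPKM (SD, n = 5) in HSD17B1TG and 53.1 ± 14.96 (SD, n = 5) in WT, on 404 to 1107 reads per mouse in HSD17B1TG and 2937 to 7414 in WT. The log2 fold change from edgeR was -2.27 (SE 0.29, adjusted p = 0.0149), which is a level 4.81-fold higher in WT. It passed an adjusted p of 0.05 in all 15 other settings, including each of the 10 fits without 1 mouse, with log2 fold changes from -2.39 to -2.12. The antisense gene Gm26827 covers nearly the whole of Chsy1 on the opposite strand in GENCODE M21 and has no row in the count table. The strand setting of the counting is not given in the sources used here, so reads of both genes cannot be told apart.

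Dse was the other member whose groups did not overlap, with a smaller difference. Dse encodes dermatan sulfate epimerase, which makes iduronic acid in the chain, and lies on the minus strand at chr10:34151393-34207715. Its FPKM was 6.42, 4.14, 3.39, 4.30 and 1.91 in TG1 to TG5 and 8.53, 9.21, 8.34, 7.61 and 9.64 in WT1 to WT5. TG1 came closest to the WT mice, and the lowest WT value was 1.19 times the highest HSD17B1TG value. The mean was 4.03 ± 1.64 FPKM (SD, n = 5) in HSD17B1TG and 8.67 ± 0.786 (SD, n = 5) in WT. The log2 fold change was -1.11 (SE 0.26, adjusted p = 0.0388 in edgeR). Its adjusted p in edgeR rose above 0.05 when any one of TG2, TG4, TG5, WT1, WT2, WT3 or WT5 was left out, up to 0.0877 without TG2. Over all 10 fits without 1 mouse, the log2 fold change stayed between -1.34 and -0.93.

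Of the 10 members, 2 passed the adjusted p in the lower direction (Chsy1 and Dse) and 0 in the higher direction in edgeR. Of all 16993 genes tested, 2.81% passed in the lower and 3.34% in the higher direction. At an unadjusted p under 0.05, 6 members were lower and 0 higher, against 11.4% lower and 14.7% higher of all genes. In DESeq2, 2 members were lower and 0 higher past the adjusted p, against 6.33% lower and 8.66% higher of the 16883 of these genes that it gave an adjusted p. Both also met the thresholds of the study (adjusted p under 0.05, fold change over 2, mean FPKM over 1 in either group) in the lower direction, as did 2.08% of all genes. For the same 2 members every HSD17B1TG mouse was below every WT mouse, which held for 2.65% of all genes (4.04% had every HSD17B1TG mouse above every WT mouse). All 10 members passed the filter on low counts. The log2 fold change was negative for 9 and positive for 1, with a median of -0.54 over the 10 members and of 0.00 over all genes tested. The plot of FPKM per mouse shows each member on its own axis.

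**Figure D1:**
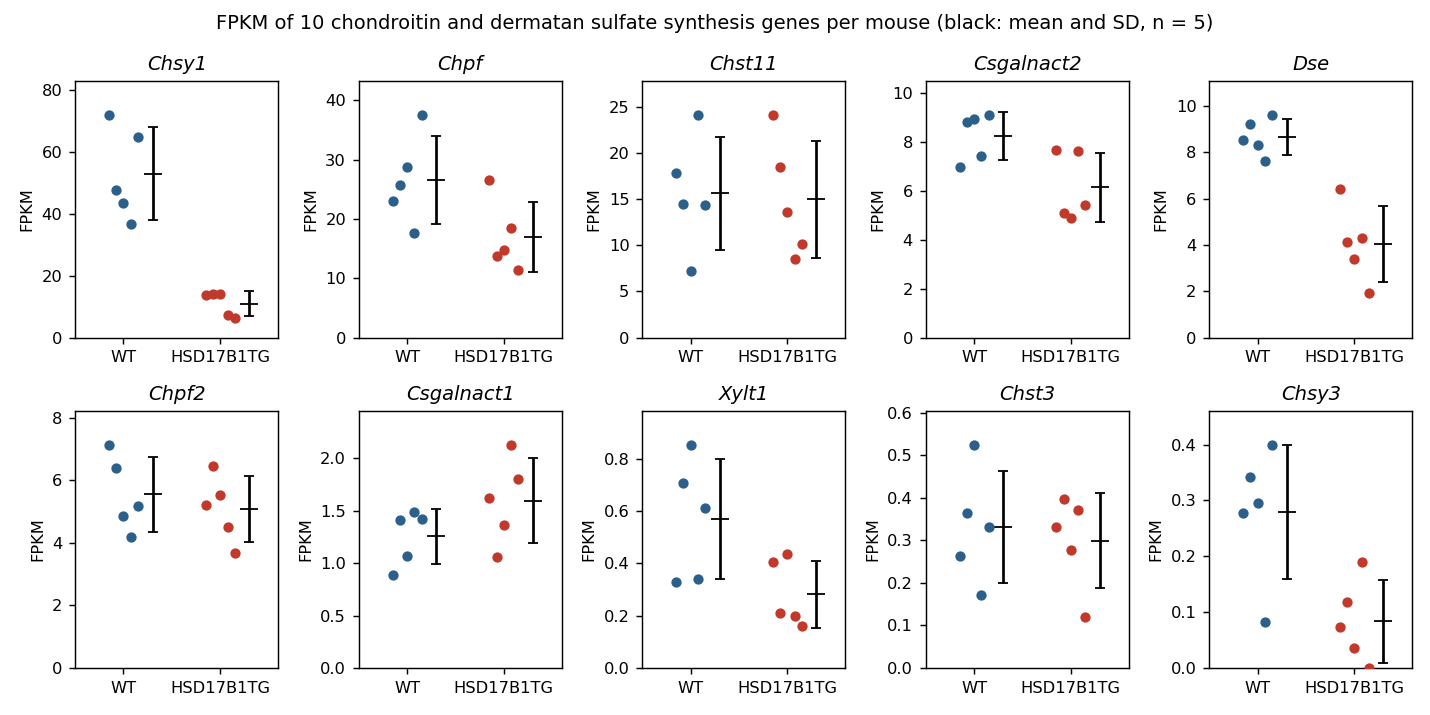
FPKM of each of the 10 genes (vertical axis, linear, from 0) in 5 WT (blue) and 5 HSD17B1TG (red) uteri, 1 point per mouse, with the mean and SD in black and the genes in order of their mean level. The red and blue points are apart for Chsy1 (6.22 to 14.1 against 36.6 to 72.2) and Dse (1.91 to 6.42 against 7.61 to 9.64) and overlap for the other 8 genes.

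The other polymerase genes did not pass the test. Chpf, the chondroitin polymerizing factor that works in complex with a synthase, had 26.6, 13.7, 14.8, 18.5 and 11.4 FPKM in TG1 to TG5. In WT1 to WT5 its FPKM was 23.1, 25.8, 28.7, 17.6 and 37.6. The highest HSD17B1TG mouse, TG1, lay above 3 of the WT mice, and the log2 fold change was -0.65 (SE 0.26, adjusted p = 0.140 in edgeR). Without TG1 it was -0.87 with an adjusted p of 0.0392 in edgeR, so that Chpf then passed the threshold besides Chsy1 and Dse. Chpf2, its closest relative, had 3.68 to 6.47 FPKM in HSD17B1TG and 4.19 to 7.14 in WT, with a log2 fold change of -0.13 (SE 0.19). Chpf lies at chr1:75474569-75479307 (-) and Chpf2 at chr5:24586741-24594556 (+). The gene Smarcd3 overlaps Chpf2 on the opposite strand at a mean of 2.94 FPKM.

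Chsy3, the second synthase, was near the limit of detection in all mice. Its counts were 0 to 9 in HSD17B1TG and 5 to 24 in WT, and its FPKM was 0.0732, 0.118, 0.0363, 0.190 and 0 in TG1 to TG5. A count of 0 in TG5 allows up to 0.165 CPM (counts scaled to the library total; 3 counts of the total, for counting error only). In WT1 to WT5 its FPKM was 0.278, 0.341, 0.296, 0.0826 and 0.400, so that WT4 lay within the HSD17B1TG range. The log2 fold change of -1.72 had an SE of 0.69 (adjusted p = 0.144 in edgeR).

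Within each mouse, the make-up of the polymerase genes differed between the genotypes. This ratio uses the Chsy1 values on which the set was chosen and is given without a test. Chsy1 made up 30.01%, 41.0%, 40.9%, 23.7% and 29.2% of the summed FPKM of Chsy1, Chsy3, Chpf and Chpf2 in TG1 to TG5. In WT1 to WT5 its share was 70.3%, 59.5%, 56.3%, 62.7% and 60.1%, and the groups did not overlap. Chpf exceeded Chsy1 in 4 of the 5 HSD17B1TG mice (0.971 to 2.57 times the Chsy1 FPKM) and in none of the WT mice (0.320 to 0.658 times). The summed FPKM of the 4 genes was 21.3 to 45.6 in HSD17B1TG and 58.5 to 108 in WT.

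**Figure D2:**
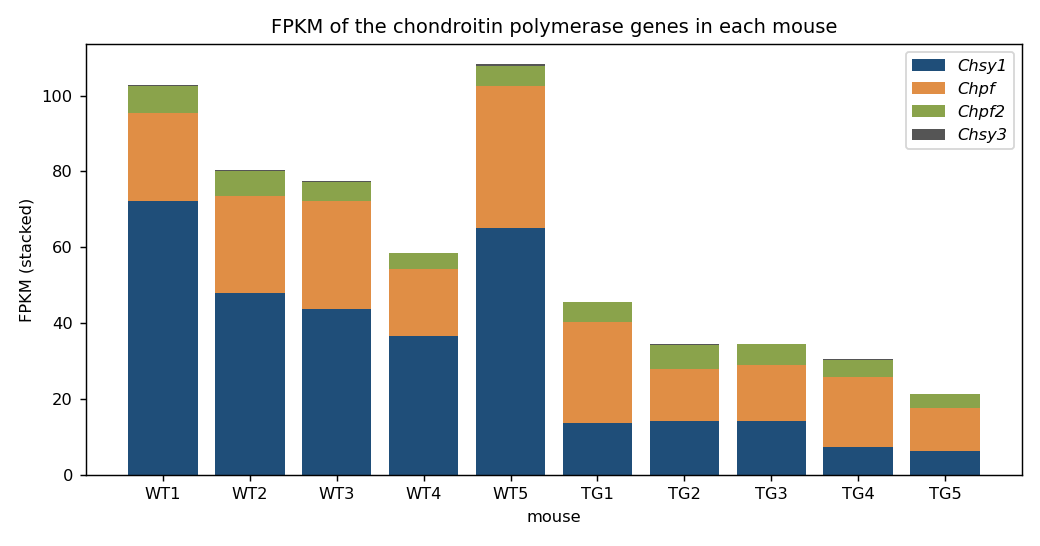
Stacked FPKM (vertical axis, linear, from 0) of Chsy1, Chpf, Chpf2 and Chsy3 in each of 10 mice (horizontal axis). Chsy1 is the largest segment in the 5 WT bars, and in the HSD17B1TG bars the Chsy1 segment covers 23.7% to 41.0% of the height.

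The genes that start the chain did not pass the test. Xylt1, 1 of 2 xylosyltransferases that put the first sugar on the core protein, had 0.406, 0.208, 0.435, 0.199 and 0.160 FPKM in TG1 to TG5. Its FPKM in WT1 to WT5 was 0.329, 0.709, 0.855, 0.341 and 0.612, and the ranges overlapped (log2 fold change -1.02, SE 0.39, adjusted p = 0.132 in edgeR). Csgalnact2, which adds the first N-acetylgalactosamine, had 4.88 to 7.69 FPKM in HSD17B1TG and 6.99 to 9.13 in WT (log2 fold change -0.43, SE 0.17, adjusted p = 0.138 in edgeR). Csgalnact1, the other enzyme of that step, was the only member with a positive log2 fold change, 0.34 (SE 0.25, adjusted p = 0.425 in edgeR), at 1.06 to 2.13 FPKM in HSD17B1TG and 0.886 to 1.49 in WT. Xylt1 lies at chr7:117380979-117673580 (+), Csgalnact1 at chr8:68356781-68735146 (-) and Csgalnact2 at chr6:118107452-118139140 (-).

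The sulfotransferases among the members had nearly equal means in both genotypes. Chst11, which sulfates N-acetylgalactosamine at position 4, had 24.1, 18.5, 13.6, 8.52 and 10.1 FPKM in TG1 to TG5. In WT1 to WT5 it had 17.8, 14.5, 7.26, 24.1 and 14.3 FPKM, so both groups covered almost the same range. The log2 fold change was -0.06 (SE 0.34), and it was positive in 3 of the 15 other settings. Chst3, which sulfates position 6, had 0.119 to 0.398 FPKM in HSD17B1TG and 0.171 to 0.525 in WT (log2 fold change -0.15, SE 0.40, positive in 2 of the 15 settings). With these SEs, a difference of the size seen for Csgalnact2 was not detectable in 5 mice per group. Chst11 was 22.9 to 85.2 times as high as Chst3 in HSD17B1TG and 13.8 to 141 times in WT. Chst11 lies at chr10:82985498-83195900 (+), where an antisense gene, 1700025N21Rik, overlaps it at a mean of 2.68 FPKM, and Chst3 at chr10:60181532-60219260 (-).

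Over all 10 mice, the order of the mean FPKM was Chsy1 (32.1), Chpf (21.8), Chst11 (15.3), Csgalnact2 (7.20), Dse (6.35), Chpf2 (5.32), Csgalnact1 (1.43), Xylt1 (0.425), Chst3 (0.315) and Chsy3 (0.181). Of the 9 pairs of neighbours in this order, 4 differed within mice on log2(FPKM + 0.1). In a two-sided exact sign-flip permutation test over 10 mice (smallest possible p 0.00195, adjusted over the 9 pairs) these were Chst11 above Csgalnact2 (adjusted p = 0.0176), Chpf2 above Csgalnact1 and Csgalnact1 above Xylt1 (both 0.00879) and Chst3 above Chsy3 (0.0264). Over the 10 mice, the other 5 pairs did not differ beyond their spread, with adjusted p from 0.123 to 0.564 in the same exact test. All 9 pairs mix both genotypes, and the order was not always the same in each. Chsy1 was above Chpf in 5 WT mice and 1 HSD17B1TG mouse, TG2. Csgalnact2 was above Dse in 1 WT mouse and 5 HSD17B1TG mice, and Dse was above Chpf2 in 5 WT mice and 1 HSD17B1TG mouse. Of the pairs that passed, Chst3 was above Chsy3 in 3 WT mice and 5 HSD17B1TG mice. Whether the order differs between the genotypes was not tested. Chsy1 ranked first in all 5 WT mice, while Chpf ranked first in 4 HSD17B1TG mice and Chst11 in TG2. TG5 had the lowest value of its group for 7 of the 10 genes and WT4 for 6 of the 10. TG5 also had the lowest stromal sum (423) and smooth muscle sum (815) of its group, and the highest epithelial sum (2682). The part of these sums in the levels of the members was not tested.

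The levels of Chsy1 and Dse were also set against the stromal markers of the same mouse. As a percent of the summed FPKM of the 8 stromal markers, Chsy1 was at 0.744% to 1.63% in HSD17B1TG and at 1.90% to 4.58% in WT, without overlap. In this sum the most abundant of the 8 markers weigh most. TG1, whose stromal sum lay within the WT range although 4 of the 8 markers were below every WT mouse in it, had 13.7 FPKM of Chsy1, less than 36.6 in the lowest WT mouse. For Dse the same percent was 0.349% to 0.488% in HSD17B1TG and 0.395% to 0.541% in WT, and the groups overlapped. Against the single stromal marker Pdgfra, a receptor of fibroblasts that itself fell, the ratio of Chsy1 also overlapped, with 0.530 to 2.13 in HSD17B1TG and 0.653 to 2.29 in WT. The ratio of Dse to Pdgfra overlapped too, with 0.248 to 0.514 in HSD17B1TG and 0.125 to 0.301 in WT, and its mean was higher in HSD17B1TG (0.384 against 0.229). These ratios are descriptions, and whether both genes differ in them was not tested.

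**Figure D3:**
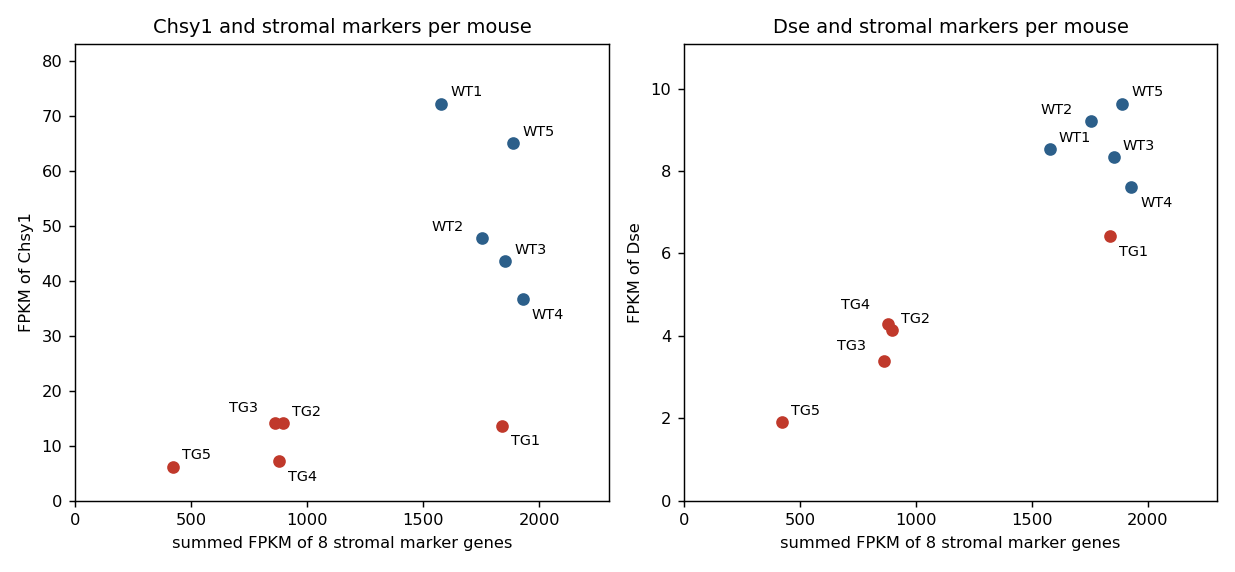
FPKM of Chsy1 (left) and Dse (right) against the summed FPKM of 8 stromal marker genes (horizontal axis), 1 labelled point per mouse, WT in blue and HSD17B1TG in red, all axes linear from 0. TG1 lies among the WT mice on the horizontal axis (in the sum, while 4 of the 8 markers were below every WT mouse), with Chsy1 at 13.7 FPKM, far under them, and Dse at 6.42 FPKM, just under them.

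The remaining genes of the pathway were read from the same fit, in lists written by hand. Of 6 further genes of the linker, 1 rose and 1 fell (median log2 fold change -0.22), where 3.34% of all genes rose and 2.81% fell. B3gat3, which adds the glucuronic acid that completes the linker, rose with 46.0, 53.4, 46.8, 49.5 and 74.3 FPKM in TG1 to TG5 against 37.2, 36.3, 33.3, 34.8 and 40.3 in WT1 to WT5. All HSD17B1TG values were above all WT values (log2 fold change 0.57, SE 0.15, adjusted p = 0.0494 in edgeR). Pxylp1, the phosphatase that removes phosphate from the xylose, fell from 5.94 ± 2.30 (SD, n = 5) to 2.40 ± 0.604 FPKM (SD, n = 5; log2 fold change -1.32, SE 0.30, adjusted p = 0.0345 in edgeR), with WT4 at 2.94 FPKM inside the HSD17B1TG range. Leaving out 1 mouse ended the call of B3gat3 in 8 of 10 fits, except without TG1 or TG3, with an adjusted p of up to 0.121 in edgeR. It ended the call of Pxylp1 in 7 of 10, except without TG1, TG3 or WT4, with an adjusted p of up to 0.0837 in edgeR.

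Among 7 other enzymes that modify the chain, Chst7 rose and 0 fell in edgeR, beside the same 3.34% and 2.81% of all genes (median log2 fold change 0.03; 1 was lower at an unadjusted p under 0.05, and 0 in DESeq2). Chst7 encodes a further sulfotransferase for position 6. Its FPKM was 3.87, 10.03, 15.5, 10.96 and 21.8 in TG1 to TG5 and 3.13, 2.43, 1.86, 5.597 and 2.90 in WT1 to WT5. Only TG1 lay inside the WT range. The log2 fold change was 1.96 (SE 0.44, adjusted p = 0.0339 in edgeR) and lay between 1.66 and 2.26 in the 10 fits without 1 mouse. The call was lost in 7 of these, except without TG1, TG3 or WT4, with an adjusted p of up to 0.0884 in edgeR. Chst12, the most abundant of the list and a sulfotransferase for position 4, had 14.8 ± 9.76 FPKM (SD, n = 5) in HSD17B1TG and 13.3 ± 4.42 (SD, n = 5) in WT.

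Of 23 genes for core proteins that carry the chains, 17 passed the filter on low counts, and 4 fell and 0 rose in edgeR, where 2.81% of all genes fell and 3.34% rose (median log2 fold change -1.01 and negative in 14 of the 17). At an unadjusted p under 0.05, 9 were lower and 0 higher (11.4% and 14.7% of all genes), and in DESeq2 5 were lower and 0 higher past the adjusted p (6.33% and 8.66% of all genes). Vcan, the large matrix proteoglycan versican, fell without overlap, from 8.83, 10.2, 8.57, 5.00 and 2.94 FPKM in WT1 to WT5 to 2.81, 1.86, 2.41, 1.32 and 1.05 in TG1 to TG5 (log2 fold change -1.92, SE 0.37, adjusted p = 0.0239 in edgeR). Cd44, a hyaluronan receptor that can carry a chain, fell from 10.9 ± 3.98 (SD, n = 5) to 5.06 ± 0.994 FPKM (SD, n = 5; log2 fold change -1.11, adjusted p = 0.0414 in edgeR), with WT4 at 5.32 FPKM inside the HSD17B1TG range. Cspg5 and Ptprz1, both known from the nervous system, also fell, on only 10 to 34 and 8 to 30 reads per mouse in HSD17B1TG. Ptprz1 alone of the 4 did not meet the thresholds of the study. Cspg5 fell from 0.144 to 3.19 FPKM in WT to 0.0533 to 0.217 in HSD17B1TG (adjusted p = 0.0395 in edgeR). Ptprz1 fell from 0.0680 to 1.11 FPKM in WT to 0.0348 to 0.126 in HSD17B1TG (adjusted p = 0.0440 in edgeR), and WT4 lay inside the HSD17B1TG range of both genes. All 4 calls were lost when any of TG2, TG4, TG5, WT1, WT2 or WT3 was left out (adjusted p of Vcan up to 0.0631 in edgeR), and without WT5 only that of Vcan was kept. Ptprz1 also lost its call without TG3 and so kept it in 2 of 10 fits. Dcn, decorin, the most abundant of the list, had 227 ± 128 FPKM (SD, n = 5) in HSD17B1TG and 242 ± 106 (SD, n = 5) in WT (log2 fold change -0.10, SE 0.45).

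No gene passed the adjusted p in edgeR in the 3 other lists. Their counts stand beside 14.7% higher and 11.4% lower of all genes at an unadjusted p under 0.05, and beside 8.66% and 6.33% past the adjusted p in DESeq2. Of 13 genes that make or carry the sugar and sulfate donors, 1 was higher and 3 lower at an unadjusted p under 0.05 (median log2 fold change 0.09), and in DESeq2 1 was lower past the adjusted p. Papss1, the synthetase of the sulfate donor, was the most abundant of them with 29.3 ± 5.32 FPKM (SD, n = 5) in HSD17B1TG and 29.9 ± 1.52 (SD, n = 5) in WT. Of 9 genes that break the chains down, 3 were higher and 0 lower at an unadjusted p under 0.05 (median 0.31), and 1 was higher in DESeq2. The most abundant was Hexa, a subunit of the lysosomal hexosaminidases, with 54.7 ± 13.1 FPKM (SD, n = 5) in HSD17B1TG and 39.1 ± 7.84 (SD, n = 5) in WT. Of 17 tested genes for heparan sulfate, the other chain built on the same linker, 1 was higher and 6 lower at an unadjusted p under 0.05 (median -0.11). In DESeq2, 3 of the 17 were lower past the adjusted p, and Hs3st4, under the filter in edgeR, was a further one. Sulf2, a sulfatase outside the cell, was the most abundant with 37.7 ± 10.3 FPKM (SD, n = 5) in HSD17B1TG and 32.7 ± 8.20 (SD, n = 5) in WT.

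**Figure D4:**
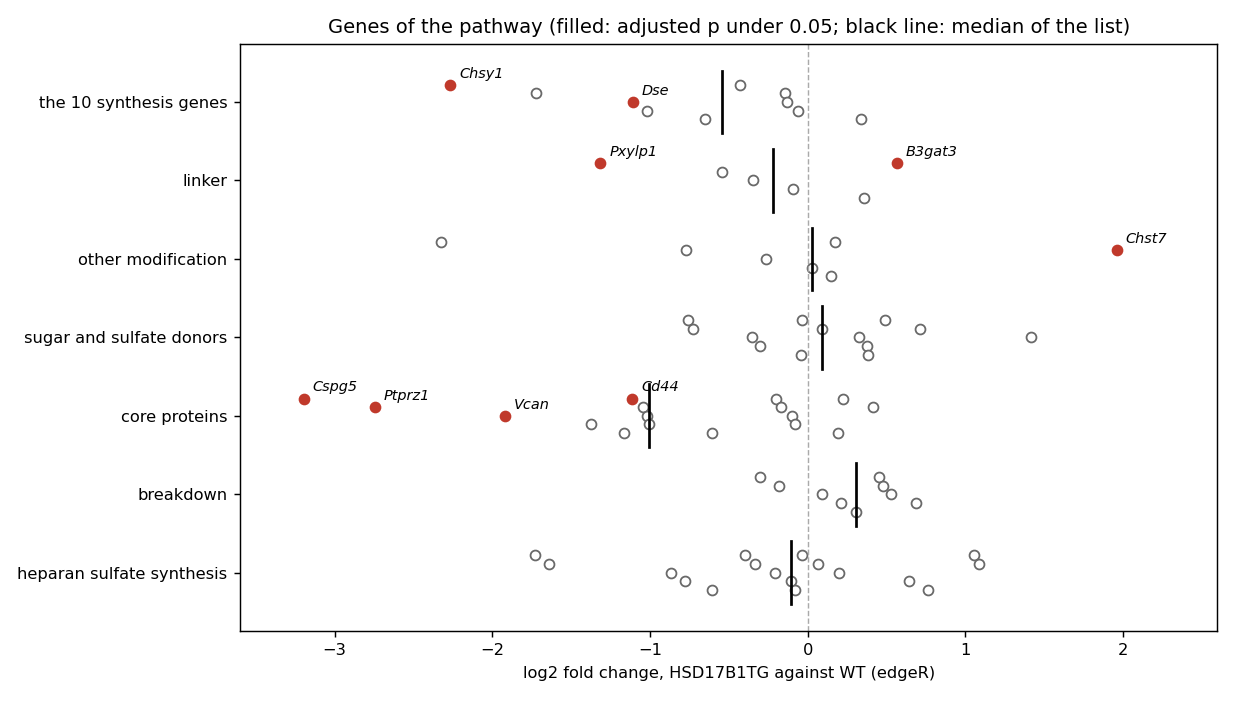
Log2 fold change of HSD17B1TG against WT from edgeR (horizontal axis) for each tested gene of the 10 synthesis genes and of 6 lists of the pathway (rows). Filled red points have an adjusted p under 0.05 and are named, open points do not, vertical offsets within a row carry no meaning, and the black line is the median of the row, from -1.01 for core proteins to 0.31 for breakdown.

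The genes most like Chsy1 within the genotypes were sought over 12347 protein-coding genes with a mean over 1 FPKM, after subtracting each genotype mean from log2 CPM. These were Bicra (Pearson r = 0.95, Spearman rho = 0.79, n = 10 mice), Tada1 (r = 0.94, rho = 0.87) and Tsc2 (r = 0.93, rho = 0.83). Without TG4 and TG5, the mice farthest from the median of Chsy1 on that scale, r was 0.91, 0.88 and 0.85. All 3 had nearly equal group means, with log2 fold changes between -0.07 and 0.00. Among the members, Chpf2 was the most like Chsy1 (r = 0.82, rho = 0.88) and Csgalnact1 the least (r = -0.68, rho = -0.88). Bicra, Tada1 and Tsc2 were picked for the highest r of this search. Their r, also without TG4 and TG5, is therefore no independent support. The points share the libraries and their depth, and the correlations are descriptions.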

How the data were processed

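RNA of the uterus of 5 HSD17B1TG and 5 WT mice was sequenced by the authors as paired-end reads of 150 bp. They mapped the reads with HISAT2 2.0.5 to the mouse genome with Ensembl 94 (GRCm38). Neither the program that counted reads nor its use of strand is given in the sources used here. The deposited table holds the raw count and the FPKM of 29268 genes in each mouse. Deposited columns and tables of the authors' own comparison in DESeq2 (fold changes, p-values and a list of changed genes) were not used.

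The genotype label set each mouse's group, and the labels name no batch. The deposited counts went through edgeR 4.0.16 in R 4.3.3 (filterByExpr, TMM factors, quasi-likelihood F test), with Benjamini-Hochberg adjustment over 16993 genes. "Rose" and "fell" mean an adjusted p under 0.05. FPKM are given as deposited. Differences between neighbours in level were tested with an exact sign-flip test over mice. The named list genes were those with an adjusted p under 0.05 (up to 4 per list) and the most abundant of each list, and the 3 genes most like Chsy1. The members, lists and tests were chosen with earlier results of these data known. Alternatives were DESeq2 1.42.0, RLE size factors, no filter, voom and limma 3.58.1 on log2(FPKM + 1), other pseudocounts, and each mouse left out in turn. The fit was tested on simulated data. A count of 3 corresponded to 0.129 to 0.202 CPM, which covers counting error only. Gene overlaps came from GENCODE M21, in which 9 of the 10 genes have the coordinates of the table, and promoters from RefSeq (GRCm38.p6). Hyal4 and Hs3st2 have no row in the table used.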

Additional observations from a re-analysis of the deposited data

How the results depend on the processing

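Chsy1 kept its direction and its adjusted p under 0.05 in all 15 alternatives, and Dse kept its direction in all 15 and its call in 8. The members past the threshold in the lower direction numbered 2 in every setting that used all mice, and 1 to 3 without 1 mouse. With RLE size factors every count stayed within 1.5 times. Over all genes, DESeq2 gave 1587 higher and 1224 lower past the adjusted p (906 and 666 at the study thresholds), against 568 and 478 (367 and 354) in edgeR. With voom 278 were lower (189 at the study thresholds), and limma on log2(FPKM + 1) gave 228 lower at the study thresholds. Without 1 mouse the counts were 45 to 1335 higher and 30 to 1052 lower (38 to 888 and 27 to 666 at the study thresholds), lowest without WT2 for the first and without TG5 for the second, and highest without WT4. The cause of this spread was not tested.

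In the lists, DESeq2 added 1 lower donor gene, 1 higher breakdown gene and 4 lower heparan sulfate genes. Its lower core protein genes were 5 against 4 in edgeR, with Srgn as the further one. No filter left 0 higher linker genes and added 1 lower heparan sulfate gene. Voom left 0 higher and 0 lower linker genes, 0 higher modification genes and 1 lower core protein gene. It added 1 lower heparan sulfate gene. Limma on FPKM left 1 lower core protein gene and added 1 lower heparan sulfate gene. Without 1 mouse, the linker had 0 to 1 higher and 0 to 2 lower, modification 0 to 1 higher, donors 0 to 1 higher, core proteins 0 to 4 lower, breakdown 0 to 1 higher and heparan sulfate 0 to 1 higher and 0 to 4 lower. The 4 neighbours that differed in level were 4 with each pseudocount. No paired analysis was possible because the genotypes share only 1 final label number, in TG1 and WT4, and the labels do not say what it means. Below about 1 FPKM, as for Chsy3, Xylt1 and Chst3, the number of reads limits what can be seen. The same holds for Cspg5 and Ptprz1 in HSD17B1TG.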
